A study of Mus musculus with 8 samples.

Results

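The genes described here encode the proteins of the mitochondrial ribosome, and they were taken as every gene on the array whose current symbol is Mrpl or Mrps followed by a number and at most 1 letter. There were 78 such genes among the 17178 genes with a symbol on the array, 49 with a large subunit symbol (Mrpl) and 29 with a small subunit symbol (Mrps). RNA abundance was measured in incisor dental epithelium of mice homozygous null for Bmi1 (Bmi1-/-, called Bmi1 null) and of wild-type (WT) mice, with 4 samples in each group and 1 single-colour array per sample. All mice were of a mixed genetic background, and the sources used here give no age, sex or treatment. The incisors were treated whole with the enzyme mix accumax before the epithelium was pulled off the mesenchyme by hand. The labels give no more of the Bmi1 allele than that it is null. Whether the samples came from separate animals is not stated, and the p-values therefore measure only the spread between these samples.

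Mitochondria carry their own ribosomes, which make the few proteins encoded by mitochondrial DNA. These are membrane subunits of the respiratory chain and of ATP synthase. The ribosomal RNAs come from mitochondrial DNA, whereas all the ribosomal proteins are encoded in the nucleus, made in the cytosol and imported. The small subunit reads the messenger RNA, and the large subunit joins the amino acids and releases the chain through an exit tunnel at the inner membrane. Many of the proteins have a counterpart in bacterial ribosomes, and the others were added during the evolution of mitochondria. Symbols and structures do not match throughout: the proteins of Mrps18a and Mrps30 sit in the large subunit, and that of Mrps36 belongs to the 2-oxoglutarate dehydrogenase complex. Bmi1 belongs to the Polycomb group, whose complexes keep genes silent, and loss of Bmi1 in mouse has been linked to altered mitochondrial function in other tissues. In the incisor, the epithelium renews itself through life and supplies the ameloblasts that build enamel.

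Values are log2 of the processed signal minus the 75th percentile of that array, so that 0 is the 75th percentile and a difference of 1 is a doubling. The 75th percentile itself lay between 440.3 and 795 signal units on the Bmi1 null arrays and between 617 and 1899.9 on the WT arrays. Probes well above background made up 64.2% to 68.2% in Bmi1 null and 69.6% to 74.4% in WT samples. Each of the 2 slides held 2 Bmi1 null and 2 WT samples, and no spot was saturated. Precision was limited by the 8 arrays. WT replicate 1 carries 1 number in its title and another in its file's name, so that its identity is uncertain, and values without it are given with the array means. The tested Bmi1 probe had -2.92, -1.22, -1.23 and -1.04 in Bmi1 null samples (replicates 1 to 4), against 1.16, 1.27, 1.20 and 1.25 in WT samples. The groups were apart, and the difference was -2.82 ± 0.37 (log2, SE, limma adjusted p = 0.0305). In 11 of 20 alternatives Bmi1 was not called, including 7 of the 8 in which 1 array was left out. Its limma adjusted p ranged from 0.000167 to 0.751 across them. No source used here says whether this probe lies inside the deleted part. The fit covered 22347 features, 13861 genes with a symbol and 8486 probes without one, each of which stood for itself; all are called genes where shares of all genes are given. Of these, limma called 11 at 5% FDR, or 0.0492%.

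NRF1, the ETS factor GABPA and YY1 are transcription factors known to act on the promoters of many nuclear genes for mitochondrial proteins. Promoter sequence was therefore set beside the expression values. The RefSeq promoter table (build GRCm38.p6) held 69 of the 78 genes, each with 250 bases before and 50 bases after the start of the gene, and both strands were searched for exact matches. The NRF1 motif, GCGCA and GCGC with any 1 base between them, was found in 13 of the 69 genes (18.8%), against 10.05% of the 11047 tested protein-coding genes with a promoter in the table and 4.60% of all 32851 promoters. The ETS letters CCGGAAG were found in 26 genes (37.7%), against 17.5% and 8.86%. The YY1 letters AAGATGGC were found in 12 genes (17.4%), against 4.62% and 2.75%. At least 1 of the 3 motifs was present in 43 of the 69 genes (62.3%) and in 28.3% of the tested protein-coding genes. No motif contains the letters of another. These are matches of letters and not measured binding.

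The sequences shown here are those of genes singled out below by their expression values, first 4 with a match and then 2 with none. Each ends at the base before the annotated start and reads 5′ to 3′ on the strand of the gene, with matches in capitals (GCCATCTT is the YY1 motif on the other strand). Mrpl9 has an NRF1 match whose first base lies 28 bases before the start. Mrpl17 has an NRF1 match at 49 bases and an ETS match at 237 bases before the start. Mrps11 has a YY1 match at 107 bases and Mrps12 at 199 bases before the start, and Mrps12 has an ETS match from base 2 after the start, outside the stretch shown. Mrpl41 and Mrps6 had none of the 3 motifs in the window.
Mrpl9, chr3:94443186-94443335, plus strand: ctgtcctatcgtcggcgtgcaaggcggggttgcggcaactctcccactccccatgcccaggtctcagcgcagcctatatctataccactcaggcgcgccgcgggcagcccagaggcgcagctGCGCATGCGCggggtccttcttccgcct
Mrpl17, chr7:105811088-105811337, minus strand: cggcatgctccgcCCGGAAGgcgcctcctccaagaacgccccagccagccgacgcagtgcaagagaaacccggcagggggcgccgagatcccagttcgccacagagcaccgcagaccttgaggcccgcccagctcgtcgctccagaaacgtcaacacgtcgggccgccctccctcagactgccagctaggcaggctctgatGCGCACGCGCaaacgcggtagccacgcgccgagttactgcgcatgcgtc
Mrps11, chr7:78782981-78783130, plus strand: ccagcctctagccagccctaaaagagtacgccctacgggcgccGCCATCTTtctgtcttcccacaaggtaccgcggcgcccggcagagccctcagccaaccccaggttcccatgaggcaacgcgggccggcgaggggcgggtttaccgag
Mrps12, chr7:28741822-28742071, minus strand: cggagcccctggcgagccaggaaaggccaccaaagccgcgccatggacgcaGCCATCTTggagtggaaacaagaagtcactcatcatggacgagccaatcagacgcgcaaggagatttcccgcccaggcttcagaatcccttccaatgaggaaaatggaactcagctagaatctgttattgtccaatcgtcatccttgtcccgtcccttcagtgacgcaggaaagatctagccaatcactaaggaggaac
Mrpl41, chr2:24975099-24975248, minus strand: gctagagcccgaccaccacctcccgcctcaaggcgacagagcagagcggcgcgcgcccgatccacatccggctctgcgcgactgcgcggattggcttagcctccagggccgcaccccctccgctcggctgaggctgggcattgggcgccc
Mrps6, chr16:92058186-92058335, plus strand: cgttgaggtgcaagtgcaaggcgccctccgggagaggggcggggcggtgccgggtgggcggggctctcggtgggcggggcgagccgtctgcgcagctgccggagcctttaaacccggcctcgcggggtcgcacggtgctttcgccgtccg

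The comparison asked whether genes of the mitochondrial ribosome differ in RNA abundance between Bmi1 null and WT dental epithelium. None of the 78 genes passed 5% FDR by limma, and the lowest adjusted p was 0.770. All 78 were measured: each tested probe was well above background on all 8 arrays, so that no gene entered through 1 genotype alone. Differences were small, between -0.33 for Mrpl9 and 0.47 for Mrpl55 on the log2 scale, or between 0.797-fold and 1.38-fold. The middle of the genes lay between 0.06 and 0.27 (quartiles), with a median of 0.14. A positive difference was found in 70 genes and a negative one in 8, against 51.4% positive and a median of 0.01 over all genes tested. At an unadjusted p under 0.05, 4 members were higher (5.13%), where 4.21% of all genes were, and none was lower, where 2.16% of all genes were. The share of members is therefore near that of all genes.

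The precision sets what these arrays could show. The standard error of a log2 difference had a median of 0.185 and ranged from 0.13 to 0.35. The 95% interval lay inside -1 to 1 for the tested probe of all 78 genes, with outer bounds of -0.78 and 0.95. A doubling or a halving thus lay outside the interval of every tested probe. The other probes of these genes are not covered by this, and 1 of them, in Mrps17, had an SE of 0.44. It lay inside -0.5 to 0.5 for 27 genes. The SD over Bmi1 null samples exceeded the SD over WT samples in 54 of the 78 genes, with median SDs of 0.25 in Bmi1 null and 0.19 in WT samples (n = 4 each). In these bulk samples, a change in the share of a cell type and a change in RNA per cell cannot be told apart.

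**Figure D1:**
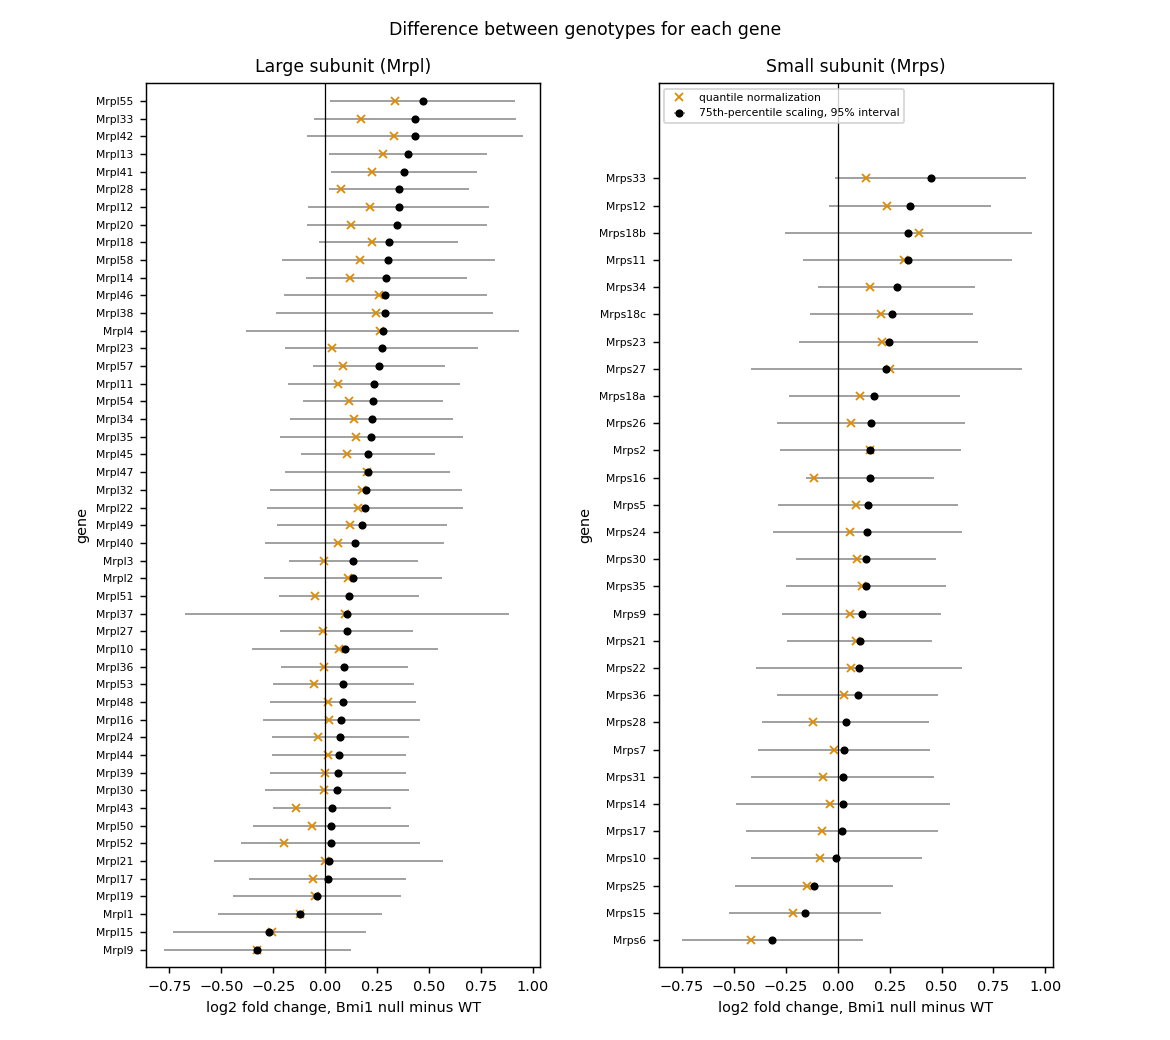
Log2 fold change (Bmi1 null minus WT) of each of the 49 large subunit genes (left) and 29 small subunit genes (right), ordered by size. Points with bars are the limma estimates with 95% intervals after 75th-percentile scaling, and crosses are the estimates under quantile normalization. Most points lie right of 0 under the first scaling, and most crosses lie closer to 0.

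Among the 49 large subunit genes, 45 had a positive and 4 a negative difference, with a median of 0.18. Mrpl41, a protein added in mitochondria, had 4.17, 4.38, 4.31 and 3.95 in Bmi1 null samples, against 4.04, 3.81, 3.63 and 3.82 in WT samples. Only Bmi1 null replicate 4 fell within the WT range, and the difference was 0.38 ± 0.16 (SE, limma unadjusted p = 0.036, adjusted p = 0.770). Mrpl55, a protein of the central protuberance, had 4.08, 4.10, 4.05 and 3.56 in Bmi1 null samples, against 3.72, 3.61, 3.01 and 3.57 in WT samples. The first 3 Bmi1 null samples were above all WT samples and replicate 4 was inside their range, with a difference of 0.47 ± 0.20 (SE, limma adjusted p = 0.772).

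Mrpl28, the counterpart of a bacterial protein of the same number, had 5.32, 5.46, 5.45 and 5.16 in Bmi1 null samples, against 5.09, 5.18, 4.74 and 4.95 in WT samples. The groups overlapped by 1 sample of each, and the difference was 0.36 ± 0.15 (SE, limma adjusted p = 0.772). Under quantile normalization it was 0.08. Mrpl13, which has a bacterial counterpart, had 3.61, 3.87, 3.89 and 3.52 in Bmi1 null samples, against 3.52, 3.47, 2.99 and 3.32 in WT samples. It was the 1 member of 78 (1.28%) with all Bmi1 null arrays above all WT arrays, a pattern found in 1.81% of all genes tested. The difference was 0.40 ± 0.17 (SE, limma adjusted p = 0.772), the gap between the groups was narrow at Bmi1 null replicate 4 and WT replicate 1, and the groups overlapped under quantile normalization.

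The large subunit genes with a negative difference were Mrpl9, Mrpl15, Mrpl1 and Mrpl19. Mrpl9, the counterpart of a bacterial protein at the base of the L1 stalk, had -0.14, -0.48, -0.56 and -0.02 in Bmi1 null samples, against 0.04, -0.01, 0.29 and -0.22 in WT samples. The 2 groups overlapped, and the difference was -0.33 ± 0.20 (SE, limma adjusted p = 0.794). Mrpl15, which also has a bacterial counterpart, had -0.97, -0.78, -0.72 and -0.28 in Bmi1 null samples, against -0.45, -0.24, -0.30 and -0.68 in WT samples. Again the groups overlapped, with a difference of -0.27 ± 0.21 (SE, limma adjusted p = 0.814), or -0.17 without Bmi1 null replicate 1 and -0.40 without Bmi1 null replicate 4. Mrpl1, the protein of the L1 stalk, differed by -0.12, or -0.01 without Bmi1 null replicate 1 and -0.07 without WT replicate 2, and Mrpl19 by -0.04. Nearest to 0 were Mrpl17, which lines the exit tunnel, at 0.01 and Mrpl21 at 0.02, each with samples of both genotypes interleaved.

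**Figure D2:**
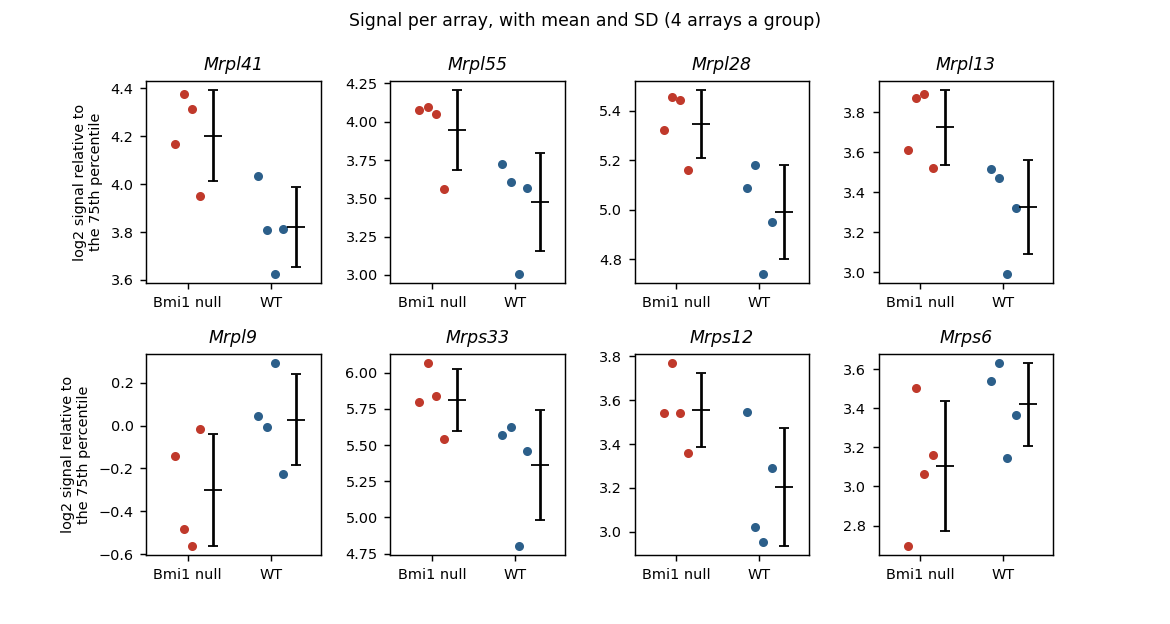
Log2 signal minus the 75th percentile of the array for 8 of the genes named in the text, with each array as a point (Bmi1 null red, WT blue) and the mean with its SD beside it (4 arrays a group). The vertical axes differ between genes and do not start at 0. Only Mrpl13 has its groups apart, and Mrpl9 and Mrps6 have the lower mean in Bmi1 null samples.

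Small subunit genes had a median of 0.14, with 25 of 29 positive and 4 negative. Mrps33, a protein of the subunit's head added in mitochondria, had 5.80, 6.07, 5.84 and 5.54 in Bmi1 null samples, against 5.57, 5.63, 4.802 and 5.46 in WT samples. WT replicate 3 was far below the other WT samples and Bmi1 null replicate 4 was within the WT range, and the difference was 0.45 ± 0.21 (SE, limma adjusted p = 0.784). It was 0.13 under quantile normalization and 0.26 without WT replicate 3. Mrps12, the counterpart of the bacterial protein of the decoding site that streptomycin resistance mutations change, had 3.54, 3.77, 3.54 and 3.36 in Bmi1 null samples, against 3.55, 3.02, 2.96 and 3.29 in WT samples. WT replicate 1 lay among the Bmi1 null samples, and the difference was 0.35 ± 0.18 (SE, limma adjusted p = 0.789).

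Mrps34, a protein added in mitochondria whose loss in humans causes a form of Leigh syndrome, had a difference of 0.28. Bmi1 null replicates 1 to 3 stood at 3.95, 3.87 and 3.92 and replicate 4 at 3.45, against 3.61, 3.67, 3.24 and 3.55 in WT samples. Mrps11, a conserved protein of the platform of the small subunit, differed by 0.34, with 1.14, 1.33, 1.09 and 0.67 in Bmi1 null samples, against 1.17, 0.74, 0.27 and 0.70 in WT samples. In both genes 1 or more Bmi1 null samples lay inside the WT range, and Mrps11 had 0.19 without WT replicate 3.

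On the negative side, Mrps6, the counterpart of a bacterial platform protein, had 2.69, 3.504, 3.06 and 3.16 in Bmi1 null samples, against 3.54, 3.63, 3.15 and 3.37 in WT samples. Bmi1 null replicate 1 was the lowest of the 8, and the difference was -0.31 ± 0.20 (SE, limma adjusted p = 0.794), or -0.18 without that array. Under quantile normalization it was -0.42 with an unadjusted limma p of 0.0346 (adjusted p = 0.786), the only member below 0.05 in that setting. Mrps15 differed by -0.16 (-0.09 without WT replicate 2) and Mrps25 by -0.12. Mrps25 had -0.02 without Bmi1 null replicate 1, -0.05 without WT replicate 2 and -0.19 without WT replicate 4. Mrps10 at -0.01 and Mrps17 at 0.02 were near 0, and of the 19 named members 12 moved by over 1.5 times or changed sign in at least 1 fit without 1 array.

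The genes were also grouped by the place of their proteins in the ribosome, as a description with no test. The 8 genes of the central protuberance, the crown of the large subunit that touches the small one, had a median of 0.29 (0.20 under quantile normalization). The 6 genes of the stalks that recruit factors and release transfer RNAs had 0.16, the 5 of the catalytic core 0.13 and the 8 of the exit tunnel 0.13. In the small subunit, the 7 genes of the head had a median of 0.12 and the 3 of the decoding site and messenger channel 0.16. By origin, the 48 genes with a bacterial counterpart had a median of 0.14 with 41 positive, and the 29 added in mitochondria had 0.14 with 28 positive. Genes with an ETS match in the promoter had a median of 0.17, against 0.13 without, those with a YY1 match 0.19 against 0.13, and those with an NRF1 match 0.12 against 0.14.

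The size of the shift depended on the scaling. Under quantile normalization the median of the 78 genes was 0.07 (large 0.08, small 0.06), with 51 positive and 27 negative differences, while the median of all genes was -0.02 with 47.5% positive. After 75th-percentile scaling, most genes with a high level had a positive difference. Of the 1721 genes with a mean level above 3.5, 78.1% had a positive difference, with a median of 0.18, and the 21 members among them had a median of 0.28 and were all positive. Under quantile normalization the medians of that class were 0.08 for the members and -0.04 for all genes. Between levels of 2 and 3.5, the 29 members had a median of 0.10 and the 2426 genes of that class 0.05. At levels up to 2, where the median of the 18200 genes was -0.02, the 28 members had 0.13, with 23 positive. With normexp background correction the order turned: the median of all genes moved to 0.17 and that of the members was 0.09. The direction of the list relative to all genes thus depends on the processing.

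**Figure D3:**
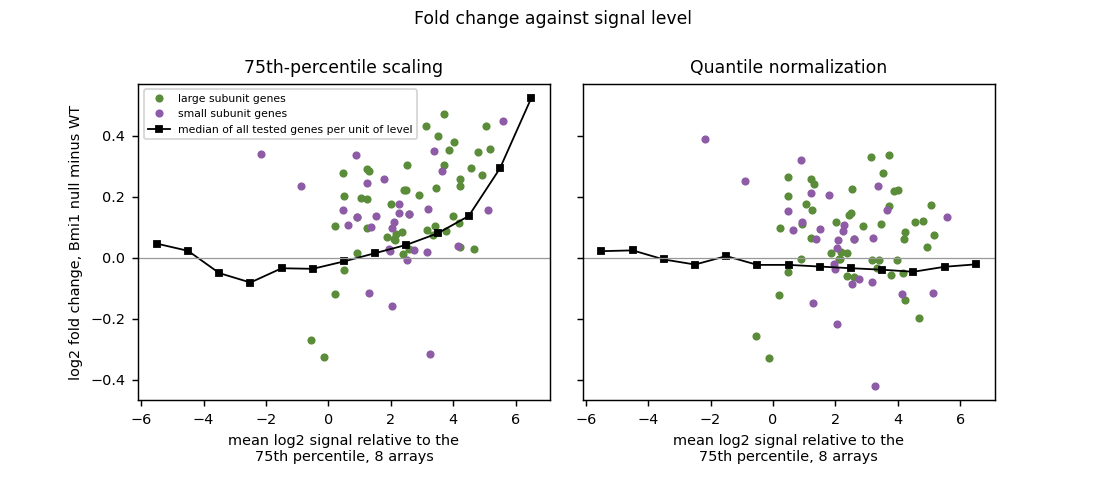
Log2 fold change (Bmi1 null minus WT) against the mean log2 signal over 8 arrays, after 75th-percentile scaling (left) and under quantile normalization (right). Circles are the large and small subunit genes, and squares joined by a line are medians of all tested genes in steps of 1 unit of level. On the left the line climbs with level and many members lie with it or above it, and on the right the line is flat near 0.

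Averaged over the 78 genes and set against the WT mean of each gene, the 4 Bmi1 null samples had 0.06, 0.31, 0.21 and 0.03 (replicates 1 to 4), against 0.16, 0.09, -0.20 and -0.04 in the WT samples. The groups overlapped, with means of 0.15 ± 0.13 in Bmi1 null and 0.00 ± 0.16 in WT samples (SD, n = 4 each). Bmi1 null replicate 2 was the highest of the 8 samples for 36 genes and WT replicate 3, the array with the brightest 75th percentile, was the lowest for 33. Without WT replicate 3 the median was 0.10 for the large and 0.07 for the small subunit genes, and without WT replicate 1 the median of all 78 was 0.23, with 0.49 for Mrps11, 0.46 for Mrps12 and 0.55 for Mrpl55. At an unadjusted limma p under 0.05, 0 members were higher without Bmi1 null replicate 2 or 3 or WT replicate 3 or 4. Of all genes, 4.47%, 1.84%, 2.54% and 2.51% were higher in these fits, in that order. Without Bmi1 null replicate 2, 1 member was lower, where 2.54% of all genes were. Without Bmi1 null replicate 4, 13 members were higher, where 8.42% of all genes were. WT replicate 1 was above the WT mean in 71 of the 78 genes, Bmi1 null replicate 2 in 72 and Bmi1 null replicate 3 in 67. The means of the large and the small subunit genes differed by -0.03 to 0.07 on any array.

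Bmi1 null replicate 1 differed from the others in pattern rather than in mean. The members' deviations from the WT mean had an SD of 0.37 on this array, against 0.20 to 0.26 on the other Bmi1 null arrays. It was the lowest sample for 19 genes and the highest for 13. Over the 8810 genes with a mean level above 0 its SD was 0.77, against 0.34 to 0.45 on the other Bmi1 null arrays, and it had 75 outlier spots where the other 7 arrays had 3 to 24. Relative to the mean of the other Bmi1 null arrays, 6 members were more than 0.5 higher and 12 more than 0.5 lower. The most distant, picked after their values were seen, were Mrpl37 at 1.43 and Mrps14 at -0.84. Without this array the median was 0.19, with 68 genes positive.

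**Figure D4:**
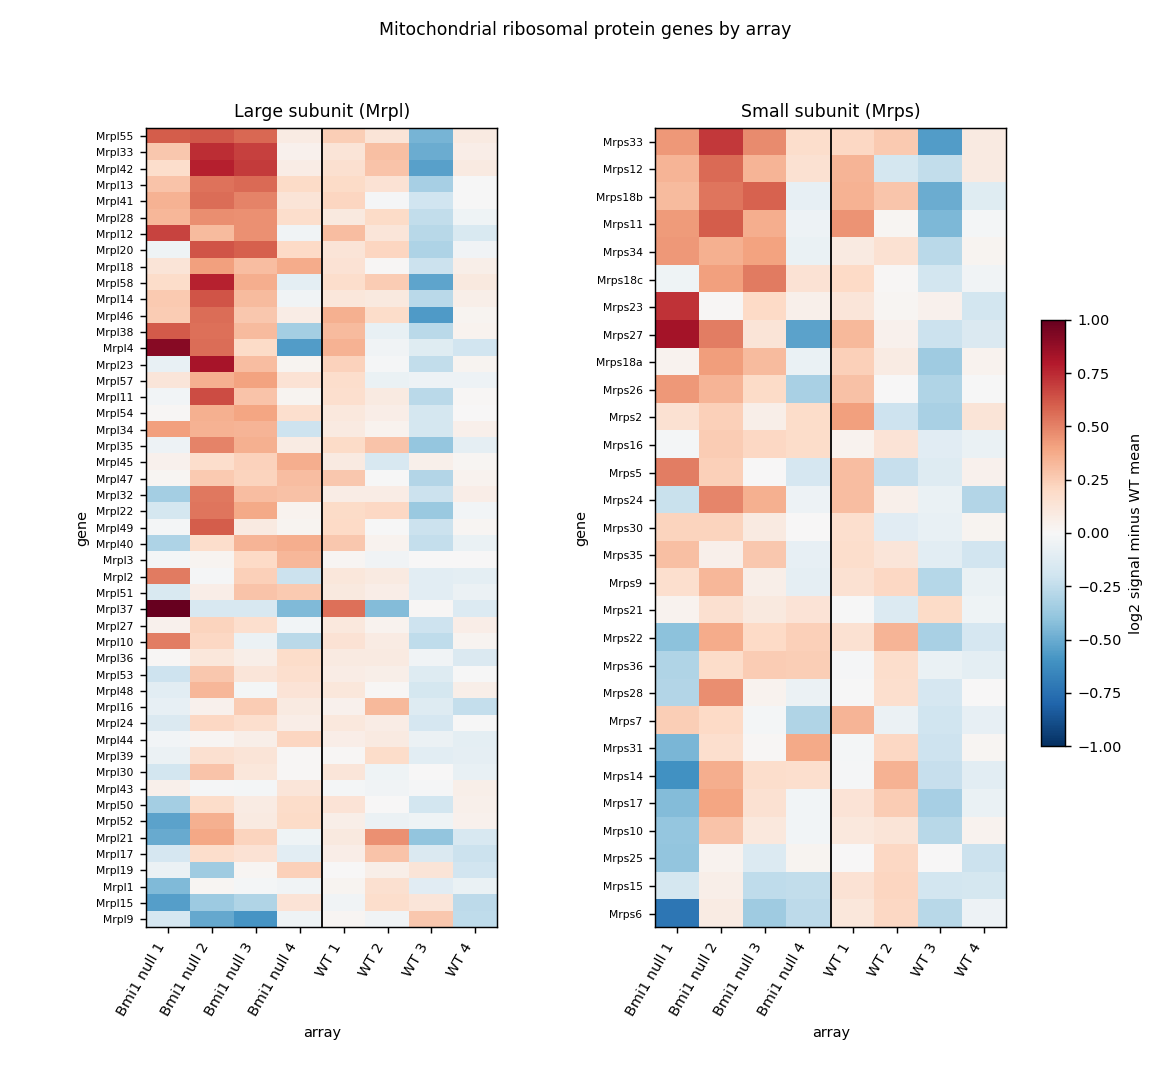
Log2 signal minus the WT mean of the gene, for each of the 78 genes (rows) on each of the 8 arrays (columns, Bmi1 null left of the line and WT right of it), with genes ordered by fold change. Red is above and blue below the WT mean. Bmi1 null replicates 2 and 3 and WT replicate 1 are mostly red, WT replicate 3 is mostly blue, and Bmi1 null replicate 1 holds both strong colours.

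Several genes had more than 1 probe, which allows a check within the gene. The 78 genes had 114 probes, 113 of them well above background on all 8 arrays. Of 28 genes with several probes, 18 had the same sign in all of them and 10 did not, and the spread between probes of a gene had a median of 0.13. The widest spread, 0.59, was in Mrpl41, whose dimmer probe was well above background on 4 arrays and had -0.20. With the mean over its probes Mrpl41 had 0.09. Probe by probe, 90 of 114 had a positive difference, 5 were higher at an unadjusted p under 0.05 and none passed 5% FDR (lowest limma adjusted p 0.811). The share over all 28606 probes fitted was not counted, so the 5 cannot be set against it.

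Other genes of mitochondrial protein synthesis were examined as lists, and none of their members passed 5% FDR by limma. Among 5 ribosomal proteins with other symbols, 4 were positive with a median of 0.30. Aurkaip1 had 0.30, with its groups apart, as in 1.81% of all genes in that direction. Chchd1 had 0.31, Gadd45gip1 0.35 and Dap3, a GTP-binding protein of the small subunit, 0.22. Ptcd3, an RNA-binding protein of the small subunit, had -0.15. Under quantile normalization the median of these 5 was 0.03. The single values were then -0.20 for Chchd1, -0.29 for Ptcd3, 0.03 for Dap3, 0.12 for Aurkaip1 and 0.26 for Gadd45gip1. Of 25 tested genes for ribosome assembly and ribosomal RNA modification, 16 were positive with a median of 0.02. Mpv17l2, an assembly factor of the inner membrane, had 0.53, the assembly GTPase gene Gtpbp10 -0.54 and the RNA methyltransferase gene Mrm3 0.37.

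Translation factors were listed with genes that modify the initiator transfer RNA, stabilise messenger RNA, activate its translation or insert new chains (Mtfmt, Lrpprc, Slirp, Taco1 and Oxa1l). In this list 11 of the 15 tested genes were positive, with a median of 0.06. Mrrf, which recycles ribosomes, had 0.34, the elongation factor gene Tufm 0.23, and the initiation factor gene Mtif2 -0.20 with its groups apart. All Bmi1 null arrays lay below all WT arrays in 279 of the 22347 genes tested. Genes that charge transfer RNAs in mitochondria, which are synthetases and the amidotransferase subunits Qrsl1, Gatb and Gatc, had a median of 0.13 with 13 of 21 positive. The synthetase gene Vars2 had 0.40, Aars2 0.32 and Gars, whose product also serves the cytosol, -0.36. Genes that copy, transcribe or process mitochondrial DNA and its RNA had a median of 0.02 with 8 of 16 positive. Here Hsd17b10, a subunit of mitochondrial RNase P, had 0.35, Mterf1b -0.45 and the single-stranded DNA-binding protein gene Ssbp1 0.29. Of the 20 genes named from the companion lists, nuclear regulators included, 16 moved by over 1.5 times or changed sign in at least 1 fit without 1 array, an alternative added after seeing the data.

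Nuclear regulators of mitochondrial genes had a median of 0.02 with 5 of 10 positive. At an unadjusted limma p under 0.05, 3 of the 10 were higher, where 4.21% of all genes were. Ppargc1a and Ppargc1b encode coactivators that drive genes of mitochondrial biogenesis, and Esrra encodes a nuclear receptor that works with them. Ppargc1b averaged 0.10 ± 0.94 in Bmi1 null and -1.004 ± 0.25 in WT samples (SD, n = 4 each). The difference was 1.103 ± 0.40 (SE, limma adjusted p = 0.770), or 0.66 without Bmi1 null replicate 1. Its groups were apart, as in 1.81% of all genes in that direction. The gap was narrow, with Bmi1 null replicate 4 at -0.69 and WT replicate 1 at -0.78. Ppargc1a averaged 0.68 ± 0.85 in Bmi1 null and -0.39 ± 0.38 in WT samples (SD, n = 4 each). The difference was 1.06 ± 0.38 (SE, limma adjusted p = 0.770). Its groups overlapped, with Bmi1 null replicate 2 at -0.35 and WT replicate 1 at -0.04. Esrra differed by 0.79 ± 0.33 (SE, limma adjusted p = 0.770), or 0.49 without Bmi1 null replicate 1. Under quantile normalization the differences were 1.11 for Ppargc1b, 1.06 for Ppargc1a and 0.76 for Esrra.

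**Figure D5:**
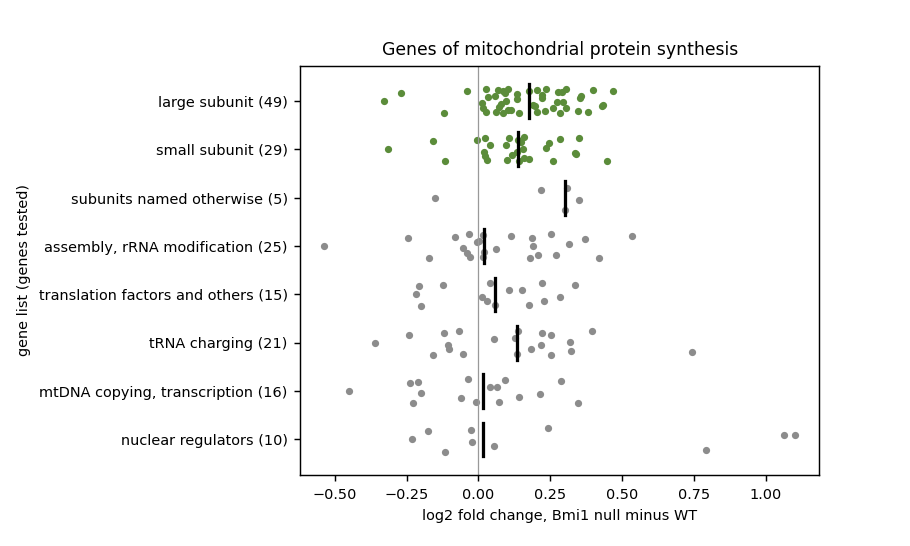
Log2 fold change (Bmi1 null minus WT, 75th-percentile scaling) of each tested gene in 8 lists of mitochondrial protein synthesis and its regulation, with the number tested in brackets and a bar at each median. The medians of the large and small subunit genes are 0.18 and 0.14, and the 3 points beyond 0.75 in the bottom list are Ppargc1a, Ppargc1b and Esrra.

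For the cytosolic ribosomal proteins, the 83 tested genes had a median of 0.58 with 77 positive, and 43 were higher at an unadjusted p under 0.05, against 4.21% of all genes. Under quantile normalization their median was 0.05, with 4 higher and 1 lower, where 3.37% of all genes were higher and 2.68% lower. Cell type markers are given as the summed signal relative to the 75th percentile (linear scale). All 12 dental epithelium markers passed the filter, with 632 to 983 in Bmi1 null and 346 to 509 in WT samples and 11 of 12 positive. Their median difference was 0.61, or 0.32 under quantile normalization. At an unadjusted limma p under 0.05, 8 of the 12 were higher, where 4.21% of all genes were. Under quantile normalization 1 of the 12 was higher, where 3.37% of all genes were. The sums of the other marker lists overlapped between the groups. Mesenchyme and odontoblast markers, also all 12 tested, had 358 to 691 in Bmi1 null and 312 to 482 in WT samples, with a median difference of 0.31 that became -0.09 under quantile normalization. Endothelial markers had 18.9 to 33.0 in Bmi1 null and 26.0 to 39.2 in WT samples, with 1 of 8 positive. Their median difference was -0.28, or -0.31 under quantile normalization. Leukocyte markers had 3.75 to 7.50 in Bmi1 null and 6.05 to 13.2 in WT samples, with 1 of 8 positive. Their median difference was -0.63, or -0.68 under quantile normalization. At an unadjusted limma p under 0.05, 3 of the 8 leukocyte and 1 of the 8 endothelial markers were lower under either scaling. None was higher. Of all genes, 2.16% were lower, or 2.68% under quantile normalization. Erythroid markers had 26.8 to 104 in Bmi1 null and 21.0 to 45.9 in WT samples, with 4 of 5 positive. The summed signal of the 78 genes was 702 to 887 in Bmi1 null and 564 to 725 in WT samples. The same sum over all genes tested also had the higher range in Bmi1 null samples, with 85874.5 to 105169 against 68583.4 to 88900.5 in WT samples. In both sums the ranges of the groups overlapped. Among the cell type markers, Ms4a1 was called lower (limma adjusted p = 0.00702), but not in 4 of 19 alternatives. Its limma adjusted p was 0.774 with normexp background correction. With the deposited value table it was 0.104, and the difference was -1.19 against -3.58. Ms4a1 did not pass the filter on all 8 arrays. Its values were -7.61, -7.60, -8.16 and -8.43 in Bmi1 null samples, against -4.115, -5.07, -4.54 and -3.77 in WT samples. The leukocyte markers Cd68 and Cd79a did not enter the test. The part of these cell types in the values of the mitochondrial ribosome genes was not tested.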

How the data were processed

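RNA of 8 dental epithelium samples was measured on single-colour Agilent arrays with the dye Cy3. Spots were quantified by the authors in Feature Extraction 10.5.1.1 (GE1-v5_95_Feb07), and the grid names build mm9, per the file headers. The deposited processed signal is a linear intensity, corrected for background within each array and not scaled between arrays. The deposited median signal and local background are uncorrected intensities. The deposited value table holds log2 values; set against the scanner values it followed the quantile-normalized log2 median signal (r = 0.9999 on every array, medians 6.76 to 6.77), and it served as an alternative. The deposited quality columns mark each spot with 0 or 1.

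Each array held 41174 noncontrol probes and 1417 control spots, and 24844 probes received a symbol from the RefSeq gene table. Control and outlier spots were excluded, and each log2 signal was scaled by the 75th percentile of its array. Probes well above background on at least 4 arrays entered, and the entering probe with the highest mean stood for its gene. Bmi1 null and WT samples were compared with limma 3.58.1 in R 4.3.3 (lmFit, eBayes with trend), two-sided, with Benjamini-Hochberg adjustment over 22347 genes and unnamed probes at 5%. The limma fit with trend was tried on simulated data, without the scaling, filter, choice of probe, array weights or slide block. Members and lists were chosen with earlier results of these data known, and the grouping by place and origin after their values were seen. Named genes are Bmi1, members with groups apart, the 4 of smallest p in each direction and the 2 nearest 0 in each subunit, a member whose probes differ in sign with 1 at p under 0.05, the 3 of smallest p in each companion list, and all 5 ribosomal proteins with other symbols. Marker lists are given by their sums and counts. Promoter sequences are from RefSeq (GRCm38.p6), whose build differs from that of the arrays. Alternatives changed the background correction, scaling, filter, choice of probe, trend, array weights and slide block, and left out each array. Each slide alone, and leaving out each array for the companion genes, were added after seeing the data.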

Additional observations from a re-analysis of the deposited data

Results flagged for a closer look

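In 4 of the 46 groups of 4 arrays checked, 1 sample lay far from the others, where chance flags about 1 in 20 groups. The lowest of the 4 Bmi1 null values was -2.92 for Bmi1 (replicate 1), 3.56 for Mrpl55 (replicate 4), -0.18 for Mrpl1 (replicate 1) and 3.45 for Mrps34 (replicate 4).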

How the results depend on the processing

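No member of the mitochondrial ribosome list passed 5% or 10% FDR by limma in any of the 20 alternatives, where the lowest adjusted p was 0.231. The members' median stayed positive throughout, from 0.10 to 0.23 with 1 array left out (large subunit 0.10 to 0.24, small subunit 0.07 to 0.19) and from 0.07 to 0.20 otherwise, while the SD of the members' mean over WT samples was 0.16. With array weights 13 members were higher at an unadjusted p under 0.05, where 8.68% of all genes were. In slide 1 alone the median was 0.11 and in slide 2 alone 0.17. The median of all genes moved to 0.17 with normexp and to 0.13 with no filter. The count of all genes called, 11, was 5 with normexp, 22 with array weights and 0 by limma with a filter on all 8 arrays, where 906 genes were higher and 359 lower at an unadjusted p under 0.05; the cause was not tested. It was 9 to 14 with 1 array left out. For the 19 named members, 374 of 380 values moved by less than 1 SD, which is a loose limit for differences this small. The median SD of the 78 genes over WT samples was 0.19, against a median difference of 0.14. In 5 of the named members, 32 of the 380 values changed sign, and 14 genes kept their sign throughout. No paired analysis was possible because the labels give the genotypes no shared replicate numbers. Signal over background did not limit the members, all of which were well above it.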
